A study of Homo sapiens with 3 samples.

Results

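The matrix metalloproteinases (MMPs) and their inhibitors, the TIMPs, were followed by the transcripts of 9 genes, MMP1, MMP7, MMP10, MMP13, MMP14, MMP15, TIMP1, TIMP2 and TIMP3, out of 31907 rows in the table. They were picked by gene symbol, with their values in these libraries already known, so every value of the 9 is given as a description and no test is applied to them. The libraries were poly(A) RNA of NCI-N87 cells, a human line established from a gastric carcinoma, transfected with Lipofectamine 2000. One library received siRNA1 against FOXP4, a forkhead transcription factor, another received siRNA2 against FOXP4, and the control received a scrambled siRNA. The knockdown libraries are different reagents and not repeats of 1 treatment, the control is a single library, and the labels do not say whether the cultures were separate, so each level below is 1 library with no replicate error.

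MMPs are zinc-dependent proteinases made as inactive precursors that open once a propeptide is removed. The secreted collagenases and stromelysins cut fibrillar collagen, proteoglycans and glycoproteins of the matrix, the membrane-type MMPs sit on the cell surface, and TIMPs block the active site of both kinds. In tumours of the stomach and gut, MMPs are made by cancer cells and by the fibroblasts and leukocytes around them, and the secreted members are known for promoters that respond to AP-1, the dimer of Fos and Jun proteins.

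FOXP4 itself measured 51.6 TPM with siRNA1 and 36.7 TPM with siRNA2, against 93.9 TPM with the scrambled siRNA, where TPM is a read share corrected for transcript length. Estimated depth was 18100000 reads with siRNA1 and 18700000 with siRNA2, against 17900000 with the scrambled siRNA. Folds with siRNA1 fell with the GC content of the transcript (Spearman correlation across 8578 genes, which are not replicates, of -0.68), and those with siRNA2 did so far less (-0.11), so values with that trend removed stand beside the siRNA1 folds of the members and the list medians below. The FOXP4 transcript is itself rich in GC, at 62.9%. Its log2 folds, with the trend left in, were -0.85 with siRNA1 and -1.33 with siRNA2. The membrane protease gene ST14, at 62.8% GC, had a siRNA1 log2 fold of -0.73, and -0.08 without the trend. How much of the siRNA1 fold of FOXP4 goes with GC content was not tested. Mitochondrially encoded genes took 10.4% of TPM with siRNA1 and 1.92% with siRNA2, against 6.37% with the scrambled siRNA. All 6 epithelial markers were detected in every library and summed to 3219 TPM with siRNA1 and 4795 TPM with siRNA2, against 4508 TPM with the scrambled siRNA. They did not move together: EPCAM measured 1150 TPM with siRNA1 and 813 TPM with siRNA2, against 1136 TPM with the scrambled siRNA, while KRT19 measured 781 TPM with siRNA1 and 1616 TPM with siRNA2, against 1343 TPM with the scrambled siRNA. Their part in the results below was not tested. The stromal and immune markers COL1A2, DCN, LUM, CD14 and CDH5 were listed at 0 in every library. The 8 fibroblast markers summed to 148 TPM with siRNA1 and 88.3 TPM with siRNA2, against 98.7 TPM with the scrambled siRNA, most of it PDGFRA (141, 65.6 and 84.8 TPM) and COL1A1 (6.42, 22.3 and 13.1 TPM). Of the macrophage and neutrophil markers, 7 were in the table and 3 of these were at 0 throughout. Their sums were 4404 TPM with siRNA1, 3329 TPM with siRNA2 and 3579 TPM with the scrambled siRNA, almost wholly LYZ, which gastric glands also make. The 3 endothelial markers in the table stayed under 0.1 TPM in sum. Bulk RNA cannot tell fewer cells of a type from less RNA per cell.

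The 9 genes fell into 3 sets by level. MMP1, TIMP1, MMP14, MMP15 and TIMP2 were abundant in every library, MMP10 was low in the control and high with both siRNAs, and MMP7, MMP13 and TIMP3 were at or near the detection limit. MMP1, MMP10, MMP14, MMP15, TIMP1 and TIMP2 had at least 1 TPM in each library, and only these 6 passed the filter of a mean of at least 1 TPM that the comparison across all genes used. MMP1 and MMP10 were at least 2-fold above the scrambled library with both siRNAs, that is 2 of 6, where 2.52% of the 14429 genes tested met the same rule. None of the 6 was at least 2-fold lower with both, a rule met by 2.38% of genes tested. MMP14, MMP15, TIMP1 and TIMP2 stayed within 1.5-fold of the scrambled library with both siRNAs, that is 4 of 6, as did 41.8% of genes tested. Because the members were chosen with these values known, nothing is read from the shares. For the 6, log2 folds had a median of 0.06 with siRNA1 and 0.23 with siRNA2, beside 0.03 and -0.24 over all genes tested. These medians keep the GC trend. With it removed, the siRNA1 folds of the 6 lay between 0.18 (MMP14) and 2.81 (MMP10), so the siRNA1 median depends on that step.

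**Figure D1:**
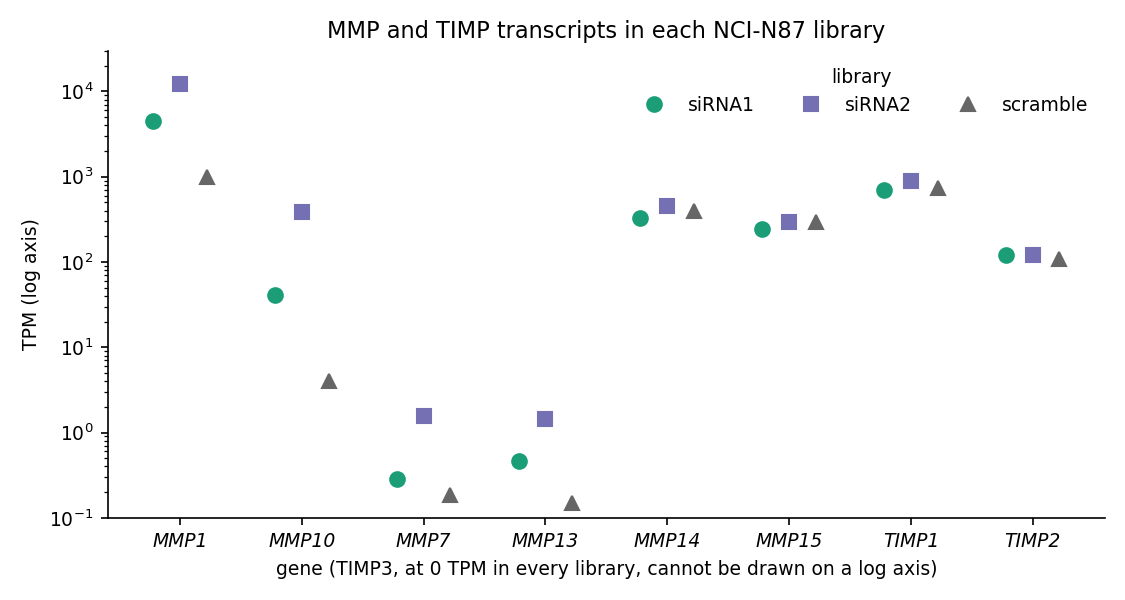
TPM of 8 members on a log axis in the siRNA1 (circles), siRNA2 (squares) and scramble (triangles) libraries, 1 point a library; TIMP3 was at 0 TPM and is not drawn. MMP1 and MMP10 are separated by library, at 12237 and 384 TPM with siRNA2, while the 3 points of MMP14, MMP15, TIMP1 and TIMP2 nearly coincide.

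MMP1, the interstitial collagenase that opens fibrillar collagen, was the most abundant of the 9 in all 3 libraries. It measured 4458 TPM with siRNA1 and 12237 TPM with siRNA2, against 996 TPM with the scrambled siRNA. The scrambled library was the lowest and siRNA2 the highest. By rank among all rows of its library MMP1 stood 12th with siRNA1 and 2nd with siRNA2, against 111th with the scrambled siRNA. It took 0.446% of all TPM with siRNA1 and 1.23% with siRNA2, against 0.0997% with the scrambled siRNA. On the log2(TPM + 1) scale, which understates the change of low genes, the folds over scramble were 2.16 with siRNA1 and 3.62 with siRNA2. With the GC trend removed they were 1.89 and 3.81. The gene lies on the minus strand of chromosome 11 (chr11:102789920-102798160, GRCh38, 10 exons), and 150 of its 1970 exon bases overlap exons of the pseudogene WTAPP1 on the other strand. The library kit named in the labels is given there without a strand-marking step, so reads on those bases cannot be assigned to either gene. WTAPP1 was listed at 6.20 TPM with siRNA1 and 4.34 TPM with siRNA2, against 0.319 TPM with the scrambled siRNA, levels far below those of MMP1 in the same libraries.

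MMP10, a stromelysin that cleaves matrix glycoproteins and can activate the MMP1 precursor, had the largest folds of the 9. It measured 40.6 TPM with siRNA1 and 384 TPM with siRNA2, against 3.99 TPM with the scrambled siRNA. The libraries kept the order seen for MMP1, with a wider gap between the siRNAs. Its log2 folds over scramble were 3.06 with siRNA1 and 6.27 with siRNA2, and 2.81 and 6.47 with the GC trend removed. The control level rested on about 33 reads, against about 322 with siRNA1 and 3106 with siRNA2. In TPM the level was 10.2 times that of the scrambled library with siRNA1, with an exact 95% interval of 7.04 to 14.9 from the counts. With siRNA2 it was 96.4 times, with an interval of 68.0 to 139. Intervals cover counting error only. MMP10 ranked 4668th with siRNA1 and 433rd with siRNA2, against 11289th with the scrambled siRNA. Set against each other, siRNA2 over siRNA1, the log2 difference was 3.21 for MMP10 and 1.46 for MMP1. At 4-fold or more in that direction, which MMP10 met and MMP1 did not, stood 1.15% of genes tested.

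MMP7, or matrilysin, and MMP13, a collagenase, were barely detected. MMP7 measured 0.284 TPM with siRNA1 and 1.58 TPM with siRNA2, against 0.183 TPM with the scrambled siRNA, which corresponds to about 3 and 17 reads against 2. The siRNA2 level was 8.63 times that of the scrambled library, with an exact 95% interval of 2.05 to 77.1, while the siRNA1 level was 1.55 times, with an interval of 0.178 to 18.6. MMP13 measured 0.465 TPM with siRNA1 and 1.45 TPM with siRNA2, against 0.150 TPM with the scrambled siRNA, or about 6 and 19 reads against 2. The siRNA2 level was 9.65 times the scrambled one, with an interval of 2.33 to 85.5, and the siRNA1 level 3.10 times, with an interval of 0.555 to 31.4. For both genes a difference between siRNA1 and scramble was not detectable at this depth. Their log2 folds depend on the pseudocount: for MMP13 with siRNA2 the fold was 1.09 at a pseudocount of 1 TPM and 2.63 at 0.1 TPM, and for MMP7 it was 1.12 and 2.57.

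MMP14 and MMP15, the membrane-type enzymes, were plentiful and nearly level. MMP14, which activates the precursors of other MMPs at the cell surface, measured 332 TPM with siRNA1 and 455 TPM with siRNA2, against 397 TPM with the scrambled siRNA. The scrambled library lay between the siRNA libraries. Log2 folds were -0.26 with siRNA1 and 0.20 with siRNA2. MMP15, its close relative, measured 245 TPM with siRNA1 and 297 TPM with siRNA2, against 298 TPM with the scrambled siRNA, with log2 folds of -0.28 and -0.01. Both transcripts are rich in GC, at 58.9% for MMP14 and 66.0% for MMP15, against 43.4% for MMP1. Once the GC trend was taken out, the siRNA1 folds changed sign, to 0.18 for MMP14 and 0.56 for MMP15, and the siRNA2 folds were 0.50 and 0.33. With median-of-ratios rescaling the siRNA2 folds were 0.48 and 0.27, so no direction is given for either gene.

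TIMP1, an inhibitor of most secreted MMPs, was the second most abundant of the 9 in every library. It measured 697 TPM with siRNA1 and 880 TPM with siRNA2, against 728 TPM with the scrambled siRNA, with log2 folds of -0.06 and 0.27. The siRNA1 and scrambled libraries were nearly equal and siRNA2 a little higher. The siRNA1 fold changed sign to 0.32 with the GC trend removed, so TIMP1 too has no settled direction. TIMP2, which binds MMP14 and takes part in activating the MMP2 precursor, measured 121 TPM with each siRNA, against 107 TPM with the scrambled siRNA, or 0.18 and 0.17 as log2 folds with siRNA1 and siRNA2. Across the alternatives its folds ranged between 0.17 and 0.38 with siRNA1, and between 0.11 and 0.47 with siRNA2. Of its 5633 exon bases, 367 overlap an antisense gene and 198 overlap CEP295NL. TIMP3, the inhibitor that stays bound to the matrix and also blocks ADAM17, was listed at 0 TPM in all 3 libraries. On its 4603 exon bases 3 reads would have been worth 0.144 TPM with siRNA1 and 0.142 TPM with siRNA2, against 0.140 TPM with the scrambled siRNA. The broadly expressed genes CD68 and CTSL were also listed at 0 throughout, so the 0 of TIMP3 is given as the table lists it.

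**Figure D2:**
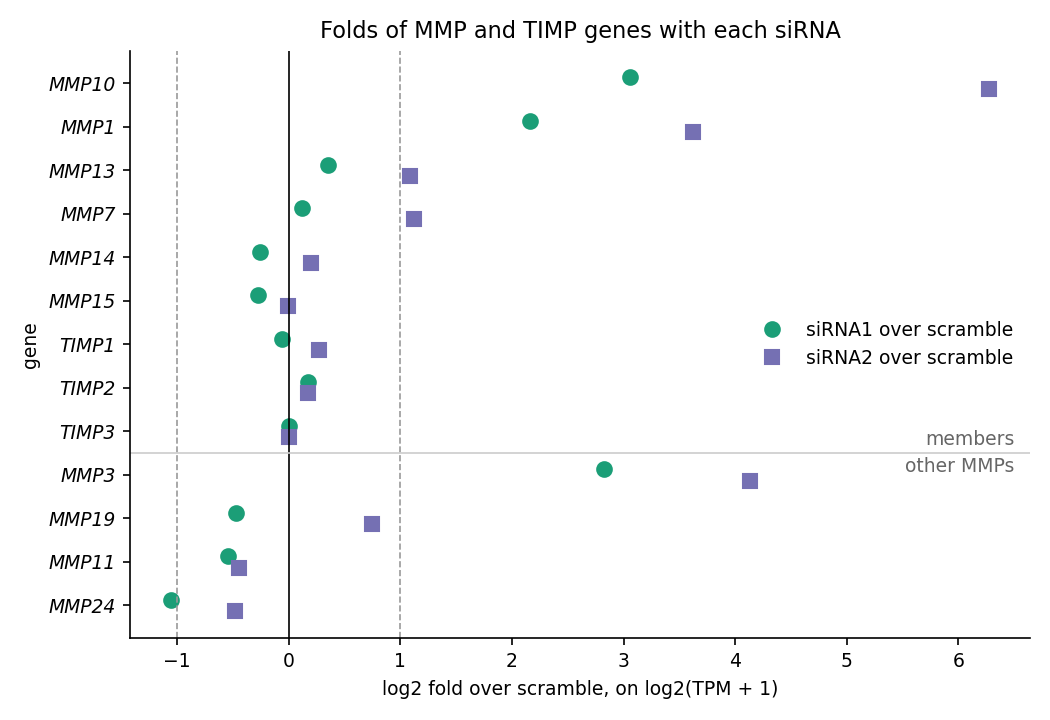
Log2 folds over the scrambled library, on log2(TPM + 1), with siRNA1 (circles) and siRNA2 (squares) for the 9 members and for the 4 genes of the list of other MMPs that passed the filter; dashed lines mark 2-fold. MMP10, MMP1 and MMP3 lie beyond 2-fold with both siRNAs, and MMP14, MMP15, TIMP1 and TIMP2 lie near 0.

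Since TPM is a level per length, transcripts of enzymes and inhibitors can be summed. The 6 MMP members summed to 5077 TPM with siRNA1 and 13376 TPM with siRNA2, against 1695 TPM with the scrambled siRNA. The 3 TIMP members summed to 818 TPM with siRNA1 and 1000.4 TPM with siRNA2, against 835 TPM with the scrambled siRNA. The enzyme sum was thus 6.21 times the inhibitor sum with siRNA1 and 13.4 times with siRNA2, against 2.03 times with the scrambled siRNA. MMP1 supplied 87.8% of the enzyme sum with siRNA1 and 91.5% with siRNA2, against 58.7% with the scrambled siRNA. Without MMP1 the other 5 enzymes summed to 619 TPM with siRNA1 and 1139 TPM with siRNA2, against 699 TPM with the scrambled siRNA, nearly all of it MMP14 and MMP15 (578, 752 and 695 TPM with siRNA1, siRNA2 and scramble), for which no direction is given above. MMP14 stood at 2.74 times TIMP2 with siRNA1 and 3.77 times with siRNA2, against 3.71 times with the scrambled siRNA. These are ratios of transcripts and say nothing of secreted or active enzyme.

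**Figure D3:**
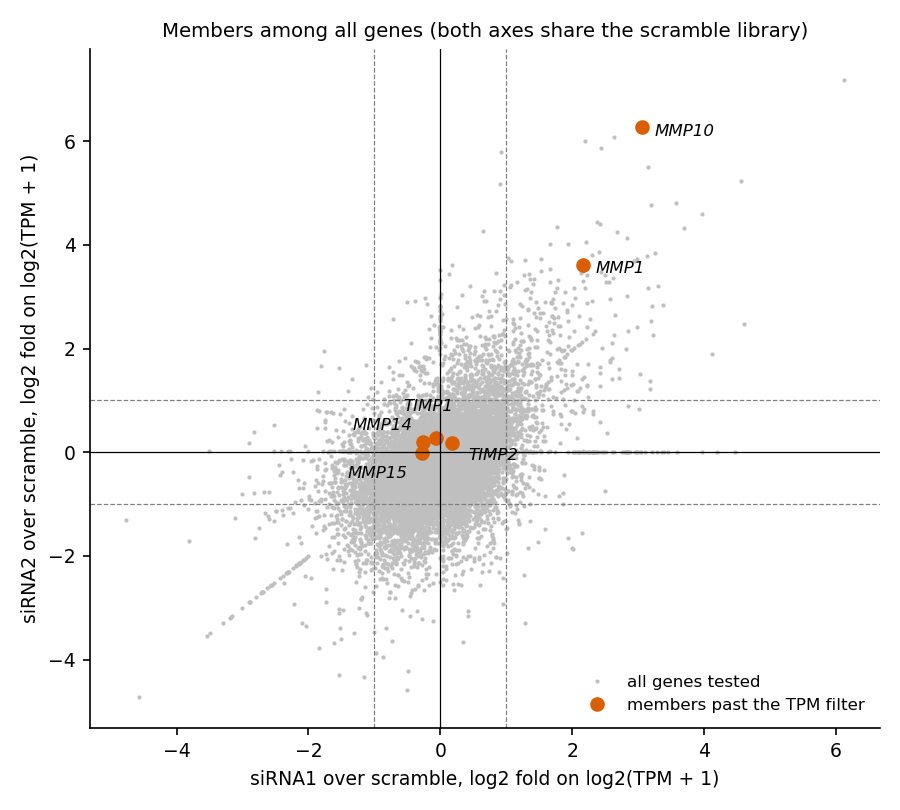
Log2 fold with siRNA2 against log2 fold with siRNA1, both over the same scrambled library, for 14429 genes tested (grey) and the 6 members past the filter (orange); dashed lines mark 2-fold. MMP10 (3.06, 6.27) and MMP1 (2.16, 3.62) lie to the upper right of most genes, and the other 4 lie in the central mass.

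MMP1, MMP7, MMP10 and MMP13 all lie in the MMP cluster of chromosome 11 (chr11:102520508-102955734, GRCh38), which holds 9 MMP genes on the minus strand over 435 kb. Of these, 7 had values. In 6 of the 7 both siRNA libraries were above the scrambled library. Among all genes tested, which average at least 1 TPM, 24.5% were above it with both. The sets are unlike, since MMP7, MMP12, MMP13 and MMP20 fall below that filter. The 6 also include the 4 members, which were chosen with their values known, so nothing is read from the share. MMP7, MMP12 and MMP13 count among the 6 on siRNA1 differences of a few reads, below what this depth can tell apart for MMP7 and MMP13. The exception was MMP20, at 0 TPM with siRNA1, 0.0846 TPM with siRNA2 and 0 TPM with the scrambled siRNA. MMP3, a stromelysin outside the 9 genes, starts 63.2 kb from the start of MMP10. It measured 34.1 TPM with siRNA1 and 85.7 TPM with siRNA2, against 3.94 TPM with the scrambled siRNA, with log2 folds of 2.83 and 4.13, or 2.62 and 4.34 with the GC trend removed. MMP12, the macrophage elastase, measured 0.234 TPM with siRNA1 and 0.691 TPM with siRNA2 and was listed at 0 with the scrambled siRNA, values that rest on about 2 and 6 reads. MMP10, MMP1 and MMP3 are consecutive among the MMP genes of the cluster. MMP7, MMP20, MMP12 and MMP13, to either side of them, stayed at or under 1.58 TPM in every library. Levels also differed between adjacent genes: MMP1, the most abundant, lies between MMP10 (9.29 kb between the gene bodies) and MMP3, both at far lower levels. Within the cluster MMP10 spans chr11:102770503-102780628, MMP7 chr11:102520508-102530753 and MMP13 chr11:102942995-102955734. The other 5 members lie alone on other chromosomes. MMP14 is at chr14:22836557-22849027, MMP15 at chr16:58025566-58046901 and TIMP1 at chrX:47582313-47586789, all on the plus strand. TIMP2 is on the minus strand at chr17:78852977-78925387, and TIMP3 on the plus strand at chr22:32801701-32863043.

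**Figure D4:**
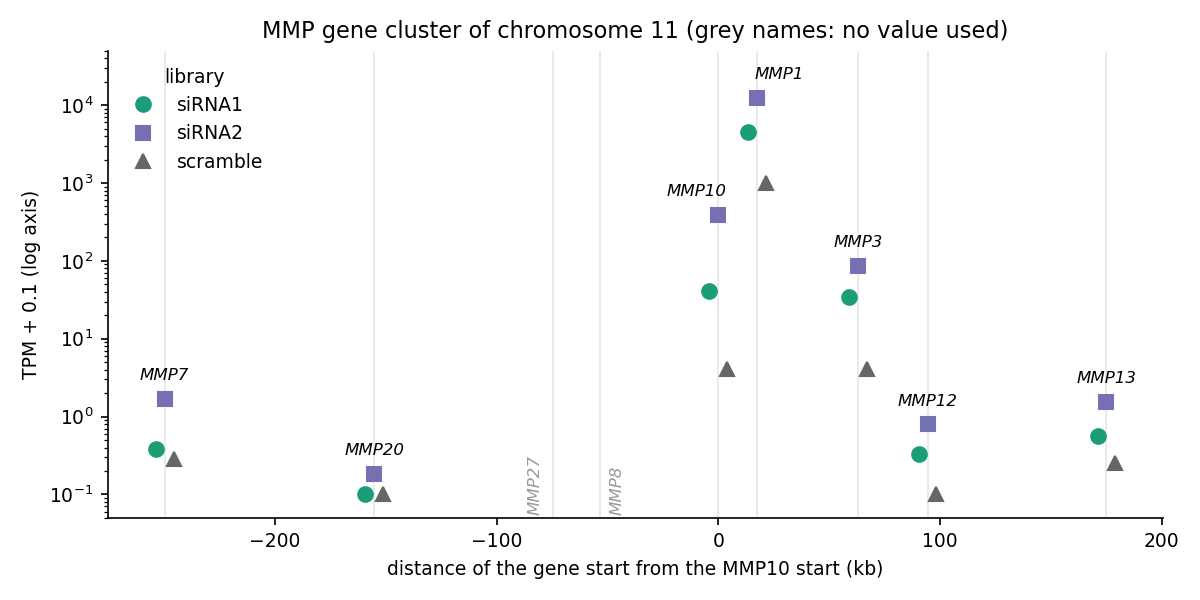
TPM + 0.1, on a log axis, of each gene in the chromosome 11 MMP cluster against the distance of its start from that of MMP10, in the siRNA1 (circles), siRNA2 (squares) and scramble (triangles) libraries. MMP10, MMP1 and MMP3 are the abundant genes, between 3.94 TPM (MMP3, scramble) and 12237 TPM (MMP1, siRNA2), while the siRNA1 and scramble points of MMP7, MMP12 and MMP13 rest on 0 to 6 reads.

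RefSeq sequences around gene starts (GRCh38.p14) were at hand for 6 of the 9 members, MMP7, MMP10, MMP14, MMP15, TIMP1 and TIMP3. MMP1, MMP13 and TIMP2 were not analysed here. The 250 bases upstream of the start are printed 5′ to 3′ for MMP10, the member with the largest folds. They are also printed for MMP7, a barely detected gene of the same cluster. MMP14 and TIMP1, an enzyme and an inhibitor that stayed within 1.5-fold, follow. Capitals mark matches to the AP-1 motif TGANTCA, the PEA3/ETS motif AGGAAG (both searched on both strands) and the TATA motif TATAAA (on the strand of the gene). The windows are chr11:102780629-102780878 and chr11:102530748-102530997 on the minus strand for MMP10 and MMP7, chr14:22836335-22836584 on the plus strand for MMP14 and chrX:47582186-47582435 on the plus strand for TIMP1.
MMP10: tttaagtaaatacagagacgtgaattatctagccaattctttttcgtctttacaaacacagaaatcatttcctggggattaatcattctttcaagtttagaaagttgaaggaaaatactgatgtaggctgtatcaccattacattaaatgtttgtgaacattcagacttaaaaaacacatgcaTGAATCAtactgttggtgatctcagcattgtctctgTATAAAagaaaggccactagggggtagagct
MMP7: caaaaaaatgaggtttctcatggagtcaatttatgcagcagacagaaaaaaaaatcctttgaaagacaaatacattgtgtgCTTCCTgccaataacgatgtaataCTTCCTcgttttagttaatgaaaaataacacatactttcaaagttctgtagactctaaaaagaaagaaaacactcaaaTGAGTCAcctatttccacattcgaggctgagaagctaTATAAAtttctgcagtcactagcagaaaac
MMP14: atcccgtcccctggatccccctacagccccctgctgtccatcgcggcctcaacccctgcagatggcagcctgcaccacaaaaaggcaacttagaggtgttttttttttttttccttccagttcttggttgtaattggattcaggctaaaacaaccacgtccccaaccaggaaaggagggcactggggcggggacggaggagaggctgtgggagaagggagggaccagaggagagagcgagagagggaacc
TIMP1: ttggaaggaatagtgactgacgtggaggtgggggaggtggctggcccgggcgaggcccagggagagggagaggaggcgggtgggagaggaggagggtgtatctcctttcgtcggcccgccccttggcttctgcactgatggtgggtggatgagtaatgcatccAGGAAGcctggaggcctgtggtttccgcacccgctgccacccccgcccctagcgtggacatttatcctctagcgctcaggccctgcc
MMP10 and MMP7 both held the AP-1 motif at bases -67 to -61 from the start, and both held TATAAA, at -31 to -26 and -30 to -25. The other 4 members held neither motif in these exact letters. The TIMP1 window holds tgagtaa, which differs from TGANTCA only in the letter before the last and was not counted. Among 27305 RefSeq promoters, 6.60% held the AP-1 motif and 7.17% held TATAAA in the same 250 bases. The PEA3/ETS motif, present in 28.7% of all promoters, occurred in MMP7, on the other strand at -169 to -164 and -145 to -140, and in TIMP1 at -87 to -82. The exact letters TGTTTAC, a forkhead motif, and GGAATG, a TEAD motif, each on both strands, were in none of the 6 windows. These letters occurred in 2.98% and 11.9% of all promoters. Variants of the motifs were not searched, so the windows are not shown to lack forkhead-like or TEAD-like letters. A match describes letters in this window and is not a binding site.

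**Figure D5:**
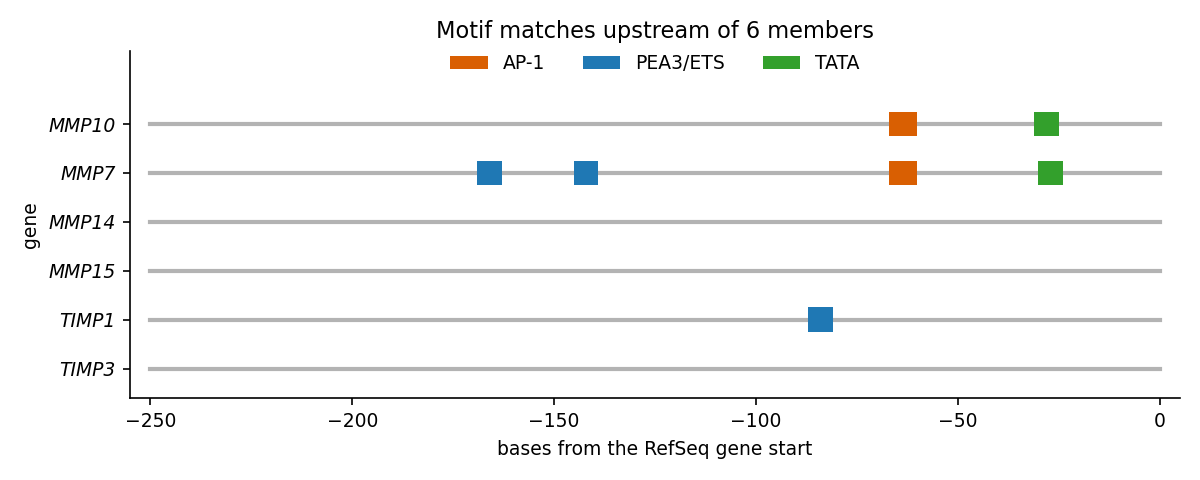
Matches to the AP-1 (orange), PEA3/ETS (blue) and TATA (green) motifs in the 250 bases upstream of the RefSeq start of 6 members, drawn to scale. MMP10 and MMP7 carry the AP-1 match at the same distance from the start, -67 to -61, and the lines of MMP14, MMP15 and TIMP3 are empty.

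Genes with folds most like those of MMP1 and MMP10 were found among 9126 genes averaging 10 TPM or more, by the distance between pairs of log2 folds over the shared scrambled library. The 5 nearest to MMP1 were CD274, MCL1, PPP1R15A, JUN and ROCK1P1, at distances of 0.17 to 0.32 log2 units. CD274, which encodes the immune checkpoint ligand PD-L1, measured 11.1 TPM with siRNA1 and 29.2 TPM with siRNA2, against 1.76 TPM with the scrambled siRNA. The 5 nearest to MMP10 were HKDC1, DUSP1, ARL14, SERPINB2 and HBEGF, of which the closest lay 0.46 log2 units away, farther than all 5 of MMP1. HKDC1, a hexokinase family member, measured 21.4 TPM with siRNA1 and 243 TPM with siRNA2, against 2.59 TPM with the scrambled siRNA. Likeness over 2 folds is a description of these 3 libraries.

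The wider MMP system was described with 6 lists, of which 70 genes passed the filter and 55 averaged 10 TPM or more. The lists were written with earlier results of these libraries known, so nothing is read from how many list genes are counted below. In limma over all 14429 genes 0 of the 70 passed, and 10 had an unadjusted p under 0.05. Over all genes limma also called 0 at an adjusted p under 0.05 (smallest adjusted p = 0.9999), with 428 genes at an unadjusted p under 0.05. Counts depended on the genes kept: among genes averaging 10 TPM or more limma called 93 of 9129, 10 of them list genes, all 10 higher, and without mitochondrial genes it called 11 of 14593, 4 of them list genes. Its only error estimate, on 1 residual degree of freedom, is the difference between the siRNA libraries. By size, 363 of 14429 genes tested (2.52%) were at least 2-fold higher with both siRNAs and 343 (2.38%) lower. With the GC trend removed the counts were 282 and 117 of 12302 genes. They were 396 and 244 of 14418 with median-of-ratios rescaling, and 416 and 263 of 14429 with quantile normalization.

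Among other MMPs and TIMP4, 14 of 18 listed genes were in the table and 4 passed the filter, with 1, MMP3, at least 2-fold higher with both siRNAs and 0 lower. MMP24, a membrane-type enzyme, measured 3.33 TPM with siRNA1 and 5.43 TPM with siRNA2, against 7.99 TPM with the scrambled siRNA, and 799 of its exon bases overlap an opposite-strand gene. MMP11 measured 1.99, 2.21 and 3.37 TPM with siRNA1, siRNA2 and scramble, and MMP19 0.705, 2.96 and 1.36 TPM. The siRNA1 log2 fold was -0.54 for MMP11 and 0.00 without the GC trend, and -1.05 and -0.53 for MMP24. The gelatinase MMP9 was listed at 0 throughout, and the gelatinase MMP2 at 0.0890 TPM with siRNA1 and at 0 in the other libraries.

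Of the ADAM and ADAMTS proteinases, which shed cell surface proteins or cut proteoglycans, 7 passed the filter and 0 were at least 2-fold away in 1 direction with both siRNAs. Log2 medians were 0.37 with siRNA1 and -0.00 with siRNA2, and 0.11 and 0.11 with the GC trend removed. ADAM17, the TNF-converting sheddase that TIMP3 blocks, measured 47.5 TPM with siRNA1 and 79.4 TPM with siRNA2, against 33.9 TPM with the scrambled siRNA. ADAM9 measured 419, 428 and 284 TPM with siRNA1, siRNA2 and scramble. At the low end ADAM15 measured 116, 124 and 208 TPM, and ADAM8 1.61, 1.44 and 2.93 TPM. Without the GC trend the siRNA1 log2 folds were 0.01 for ADAM17 in place of 0.48, and 0.13 for ADAM9 in place of 0.56. They were -0.13 for ADAM15 in place of -0.84 and 0.11 for ADAM8 in place of -0.59.

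Of 18 activators, binding partners and other inhibitors of MMPs past the filter, 2 were at least 2-fold higher with both siRNAs and 0 lower, with medians of -0.19 and 0.13, or -0.07 and 0.44 with the GC trend removed. SERPINB2, an inhibitor of the plasminogen activators that yield plasmin, itself an activator of MMP precursors, was among them. It measured 6.79 TPM with siRNA1 and 108 TPM with siRNA2, against 0.696 TPM with the scrambled siRNA. The membrane protease gene ST14 measured 380, 479 and 631 TPM with siRNA1, siRNA2 and scramble, and PCSK7 5.55, 6.01 and 8.23 TPM. The siRNA1 log2 fold of ST14 was -0.73, and -0.08 without the GC trend. FURIN, which cleaves the MMP14 precursor and was named after its values were seen, measured 293 TPM with siRNA1 and 563 TPM with siRNA2, against 296 TPM with the scrambled siRNA.

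Matrix proteins that MMPs cut gave 14 genes past the filter, with 0 at least 2-fold away in either direction with both siRNAs and medians of -0.29 and 0.43. Without the GC trend the medians were 0.13 and 0.73, so the siRNA1 median turned. LAMB3, a laminin chain of epithelial basement membrane, measured 154 TPM with siRNA1 and 631 TPM with siRNA2, against 180 TPM with the scrambled siRNA. COL4A1, a basement membrane collagen chain, measured 2.60, 17.8 and 4.54 TPM with siRNA1, siRNA2 and scramble. AGRN measured 119, 298 and 290 TPM and VTN 157, 145 and 276 TPM. The siRNA1 log2 fold of AGRN was -1.28, and -0.35 without the GC trend, and that of LAMB3 turned from -0.22 to 0.21. Of 7 cell surface substrates past the filter 1 was at least 2-fold higher with both siRNAs and 0 were lower with both, with medians of 0.41 and 1.28, or 0.38 and 1.52 without the GC trend. HBEGF, a membrane-bound ligand of the EGF receptor released by shedding, measured 245 TPM with siRNA1 and 736 TPM with siRNA2, against 26.0 TPM with the scrambled siRNA. SDC4, a syndecan, measured 921, 2439 and 522 TPM with siRNA1, siRNA2 and scramble, while its relative SDC1 measured 36.9, 65.7 and 119 TPM. NOTCH1 measured 30.6, 73.1 and 39.0 TPM, and its siRNA1 log2 fold turned from -0.34 to 0.32 without the GC trend.

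Transcription factors with sites in MMP promoters gave 20 genes past the filter. Of these, 6 were at least 2-fold higher with both siRNAs and 0 lower, beside 2.52% and 2.38% of all genes tested. The medians were 0.38 with siRNA1 and 0.92 with siRNA2, or 0.87 and 1.22 with the GC trend removed. The 6 were FOS, FOSB, FOSL1, JUN, JUNB and ATF3, all of the AP-1 and ATF families, to which many of the listed genes belong. FOSL2 and JUND, listed AP-1 genes named after their values were seen, missed the rule, with siRNA1 log2 folds of 0.68 and 0.19. FOSB measured 50.6 TPM with siRNA1 and 78.9 TPM with siRNA2, against 2.98 TPM with the scrambled siRNA. ATF3 measured 191 TPM with siRNA1 and 320 TPM with siRNA2, against 23.2 TPM with the scrambled siRNA. FOSL1, named after its values were seen, measured 210 TPM with siRNA1 and 893 TPM with siRNA2, against 54.3 TPM with the scrambled siRNA. The order of libraries, scramble lowest and siRNA2 highest, was that of MMP1 and MMP10 but was not particular to FOSL1. FOS, FOSB, JUN, JUNB and ATF3 had it too, as did factors less than 2-fold from scramble, RELA and CTNNB1 among them. ETS2 measured 461, 277 and 497 TPM with siRNA1, siRNA2 and scramble, and RUNX1 30.5, 31.6 and 35.2 TPM. These lists were written with earlier results of the same libraries known, so nothing is read from their shares.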

How the data were processed

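Per the labels, the authors deposited TPM values, with a column for each library and rows named by gene symbol. GRCh38 was the build, per the submitters' processing notes. Not given in the sources used here are the aligner, quantifier and annotation. Since TPM gives every library the same total, a gain in abundant transcripts lowers the rest. Members and lists were chosen with earlier results of these data known.

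Values were compared as log2(TPM + 1) for genes averaging 1 TPM or more. Limma 3.58.1 (R 4.3.3) with an intensity trend set 2 knockdown libraries against 1 control, with Benjamini-Hochberg adjustment. The lone control was assumed to vary like the siRNA libraries, and p-values reflect just the spread of these libraries, which may be technical. The script was checked on simulated data. Positions, exon lengths and GC content came from GENCODE 29 (GRCh38), matched by symbol for 22180 rows and 85.3% of genes tested.

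Reads were estimated from the step that 1 read adds to TPM multiplied by exon length: of values under 2 TPM and up to 10 reads, 92.5%, 92.9% and 92.7% lay within 0.1 of a whole read in the siRNA1, siRNA2 and scramble libraries, where 20% would by chance. The GC trend was removed by lowess, fitted on nuclear genes of at least 10 TPM. Beyond the members, named genes were the 2 highest and 2 lowest of each list by mean fold, the 5 nearest to MMP1 and to MMP10, and FOXP4. Other named genes (MMP2, MMP9, MMP12, MMP20, MMP23A, MMP28, WTAPP1, FOS, JUNB, FURIN, FOSL1, CD68 and CTSL among them) were named after their values were seen. A gene that this rule named is not reported here.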

Additional observations from a re-analysis of the deposited data

How the results depend on the processing

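The count of members at least 2-fold higher with both siRNAs was 2 under each alternative tried, MMP1 and MMP10 each time, and the count lower was 0. Of 96 recomputed member folds 79 moved by less than the SD between the siRNAs and 17 by more, and among called values 0 changed sign. Alternatives that only change the filter on low values leave a fold as it was, so those folds could not move. The SD is also that of each gene, wide for MMP10 and very narrow for TIMP2, so the counts do not measure stability alone. Limma called 93 of 9129 genes, 84 of them higher, with a mean of at least 10 TPM, and 11 of 14593 without mitochondrial genes. Genes at least 2-fold higher numbered 158 of 14429 at a pseudocount of 5 TPM, and 204 of 9129 with a mean of at least 10 TPM. Those lower numbered 521 and 121 of 14429 at pseudocounts of 0.1 and 5 TPM, and 583 of 24224 without a filter. They numbered 143 of 9129 with a mean of at least 10 TPM and 117 of 12302 with the GC trend removed. With 1 knockdown library left out the counts were 760 to 993 higher and 866 to 1902 lower, and limma had no residual degrees of freedom and was not run. The cause of these shifts was not tested. No paired analysis was possible because the single control carries no replicate number. Depth limits MMP7 and MMP13, where the scrambled library held about 2 reads each.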

Other observations

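Within the chromosome 11 cluster the ratio of MMP1 to MMP10 transcripts differed widely between libraries, at 110 with siRNA1 and 31.8 with siRNA2, against 250 with the scrambled siRNA. MMP1 stood at 6.40 times TIMP1 with siRNA1 and 13.9 times with siRNA2, against 1.37 times with the scrambled siRNA. WTAPP1, the opposite-strand pseudogene whose exons overlap those of MMP1 and MMP3, had its highest level with siRNA1 (6.20 TPM), whereas MMP1, MMP3 and MMP10 had theirs with siRNA2. MMP28, the epilysin, was listed at 0.307 TPM with siRNA1 and 0 with siRNA2, against 0.743 TPM with the scrambled siRNA. These values rest on about 4 and 0 reads against 10, so no difference is read from them. MMP23A, a near copy of MMP23B whose reads may be shared between the copies, measured 1.73 TPM with siRNA1 and 0.424 TPM with siRNA2, against 1.25 TPM with the scrambled siRNA. That is about 8 and 2 reads against 6, too few to read a difference from.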
